A study of Mus musculus with 38 samples.

Results

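The genes described here encode peptides with which arcuate and lateral hypothalamic neurons control appetite, arousal and energy use: Hcrt, Pmch, Agrp, Npy, Pomc, Cartpt, Nts and Gal. They were chosen by name, and each gene was represented by its probe set with a single gene symbol and the highest mean. 7 of the 8 genes had such a probe set, 1 each, among 19937 genes with a single-symbol probe set, and the 7 genes were read in all 38 arrays. Agrp was not analysed here.

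Arcuate neurons sense leptin, insulin and ghrelin. One population makes agouti-related peptide (Agrp) and neuropeptide Y (Npy), which drive feeding, and another makes proopiomelanocortin (Pomc) and the cocaine- and amphetamine-regulated transcript (Cartpt), which curb it. Neurons of the lateral hypothalamus make orexin (Hcrt), which sustains wakefulness and foraging, or melanin-concentrating hormone (Pmch), which favours feeding and sleep, and further lateral and arcuate cells make neurotensin (Nts) and galanin (Gal).

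RNA of the dissected hypothalamus was hybridised to Affymetrix Mouse Gene ST arrays, 1 array per female FVB/N mouse. In the AAV experiment, a serotype 5 vector with the neuronal Synapsin-1 promoter was injected on both sides at 8 weeks of age and carried an 853 amino acid huntingtin (HTT) fragment with 18 CAG repeats (18Q, n = 5) or 79 (79Q, n = 8). Tissue was taken 4 weeks after injection, at 12 weeks of age, and the WT control mice (n = 5) were not injected, so that expression of the fragment and the injection itself cannot be told apart in either comparison with WT control. In the BACHD experiment, mice carrying full-length human mutant HTT with 97 CAG repeats in all tissues were compared with WT mice at 2 months (6 BACHD and 6 WT) and at 10 months (5 BACHD and 3 WT). Values are log2 intensities after robust multi-array averaging (RMA). The AAV, 2 months and 10 months arrays shared no identical values across sets, and pairs within a set shared 0 to 22. They were taken as normalised apart, which the study's methods do not state. The sets were fitted apart, and levels are set against each other only within a set. With bulk tissue, fewer cells of a type and less RNA per cell cannot be told apart.

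The tissue label was checked against 10 hypothalamus markers, of which 9 lay above the median probe set in 35 or more of the 38 arrays, while Rax lay below it in all. The mean log2 value of the 10 genes was 9.03 to 9.08 in WT control, 8.36 to 9.04 in 18Q and 8.56 to 8.97 in 79Q, so that all 8 of the 79Q mice lay below all 5 of the WT control mice. In 79Q vs. WT control 9 of the 10 had a lower mean, as had 57.8% of all probe sets. 2 of them, Hdc and Otp, passed an unadjusted limma p of 0.05, against 14.0% of all probe sets. Hdc also passed an adjusted p of 0.05 (adjusted p = 0.00373), as did 2.07% of all probe sets. The differences were uneven, with -0.81 for Hdc and -0.26 for Otp, and with -0.56 for Avp and -0.45 for Oxt, which did not pass. They were -0.06 for Nr5a1, -0.01 for Nkx2-1 and 0.15 for Foxb1. Thalamus markers varied between dissections. The mean log2 value of 9 such genes was 7.96 to 8.23 in WT control, 8.06 to 8.58 in 18Q, 7.98 to 8.47 in 79Q, 8.06 to 9.62 in WT and 7.87 to 9.73 in BACHD at 2 months, and 7.93 to 8.70 in WT and 8.20 to 9.19 in BACHD at 10 months. 18Q replicate 3 and BACHD 2 months replicate 2 were the highest of their sets. The mean of 7 microglia markers was 8.51 to 9.01 in 18Q and 8.46 to 9.09 in 79Q against 8.17 to 8.26 in WT control, and that of 10 pan-neuronal markers was 11.30 to 11.49, 11.37 to 11.49 and 11.45 to 11.50. The mean of 7 B and T cell markers was 6.93 to 7.93 in 18Q and 6.50 to 7.87 in 79Q against 5.97 to 6.14 in WT control, without overlap in either comparison. Differences in the AAV experiment stand beside these shifts, and the part of other cells in them was not tested.

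The sequence upstream of the start site is shown for Hcrt and Pmch, the pair whose values went together most closely, and for Cartpt, the 1 gene of the 7 with a full cyclic AMP response element there. Each window holds the 250 bases before the RefSeq start site of the GRCm38.p6 reference genome, which is not that of FVB/N, 5′ to 3′ on the strand of the gene. Capitals mark TATAAA, the core of a TATA box, and TGACGTCA, the cyclic AMP response element, found on either strand. The Hcrt window is chr11:100762932-100763181 on the minus strand, the Pmch window chr10:88090822-88091071 on the plus strand and the Cartpt window chr13:99900684-99900933 on the minus strand.
Hcrt: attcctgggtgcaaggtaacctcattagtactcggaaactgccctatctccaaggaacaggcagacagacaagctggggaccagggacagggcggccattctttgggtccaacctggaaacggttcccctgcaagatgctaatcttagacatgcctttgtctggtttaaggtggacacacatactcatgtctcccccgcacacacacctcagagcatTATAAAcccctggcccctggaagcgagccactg
Pmch: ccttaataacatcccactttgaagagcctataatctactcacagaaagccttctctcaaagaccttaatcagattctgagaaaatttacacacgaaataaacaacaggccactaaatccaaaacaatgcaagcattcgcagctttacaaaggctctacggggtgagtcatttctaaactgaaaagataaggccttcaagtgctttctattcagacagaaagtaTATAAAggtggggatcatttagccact
Cartpt: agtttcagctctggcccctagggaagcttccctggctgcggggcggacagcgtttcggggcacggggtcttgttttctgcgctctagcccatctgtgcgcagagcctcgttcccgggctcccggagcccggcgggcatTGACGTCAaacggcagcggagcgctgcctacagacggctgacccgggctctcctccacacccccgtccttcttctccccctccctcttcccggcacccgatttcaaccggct

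TATAAA stood 33 bases before the start site in Hcrt and 27 bases before it in Pmch, and it was also found in Pomc, so that 3 of the 7 windows held it against 12.4% of 32851 RefSeq windows of the same length. TGACGTCA occurred in Cartpt, 112 bases before the start site, and in 1.55% of all windows. The E-box CACGTG was found in none of the 7 and in 6.02% of all windows. G and C made up 53.6% of the Hcrt window and 38.4% of the Pmch window, with a median of 52.4% over all windows.

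The first question was whether either HTT fragment changed the peptide genes in the weeks after injection. In 79Q vs. WT control, all 7 genes had a lower mean, as had 57.8% of all 34760 probe sets. The median log2 difference was -0.30 against -0.02 over all probe sets, and the largest differences were those of Cartpt, Hcrt and Gal. None of them passed an adjusted p of 0.05 in limma, where 2.07% of all probe sets did. At an unadjusted p of 0.05, 4 of the 7 passed (Hcrt, Pmch, Cartpt and Gal, all lower), against 14.0% of all probe sets, and 5 of the 7 had an exact permutation p under 0.05 (the same 4 and Pomc), against 15.3% of all probe sets. The groups did not overlap for 1 of the 7, Hcrt, against 2.71% of all probe sets.

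Hcrt encodes the precursor of orexin A and orexin B. In WT control its log2 values were 12.63, 12.83, 12.69, 12.64 and 12.69, in 18Q they were 12.74, 12.87, 12.46, 12.32 and 12.70, and in 79Q they ran from 11.80 through a median of 12.34 to 12.58. All 8 of the 79Q mice lay below all 5 of the WT control mice, whereas 3 of the 5 18Q mice lay above the WT control mean. The mean was 12.70 ± 0.08 (SD, n = 5) in WT control, 12.62 ± 0.22 (n = 5) in 18Q and 12.26 ± 0.29 (n = 8) in 79Q. The 79Q vs. WT control difference was -0.43 (SE 0.12), or 74.1% of the WT control level, with an adjusted p of 0.0865 in limma and an exact two-sided permutation p of 0.00699. Without each mouse in turn it ran from -0.48 to -0.37, with an adjusted p from 0.0555 to 0.211. It passed when probe sets below the median level were left out (adjusted p = 0.0484) and in a fit over all 38 arrays (adjusted p = 0.00921). The fit over all arrays also pools the spread of the BACHD experiment, where the Hcrt SDs of the groups were 0.07 to 0.16 against 0.29 in 79Q. In 79Q vs. 18Q the difference was -0.35 (SE 0.12, 95% interval -0.61 to -0.09, exact p = 0.042), and in 18Q vs. WT control it was -0.08 (interval -0.37 to 0.21). The receptor gene Hcrtr1 differed by -0.23 (SE 0.06, adjusted p = 0.0502) in 79Q vs. WT control and Hcrtr2 by -0.09 (adjusted p = 0.574).

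Pmch encodes the precursor of melanin-concentrating hormone. Its values were 12.40, 12.59, 12.48, 12.41 and 12.58 in WT control, 12.38, 12.62, 12.32, 11.99 and 12.43 in 18Q, and 11.72 to 12.51 with a median of 12.32 in 79Q. 7 of the 8 79Q mice lay below the lowest WT control mouse, replicate 5 (12.51) lay within the WT control range, and replicates 2 and 7 were the 2 lowest, at 11.84 and 11.72. These were also the 2 lowest 79Q mice for Hcrt, at 11.91 and 11.80. The 79Q vs. WT control difference was -0.30 (SE 0.12, adjusted p = 0.261, exact p = 0.0381), the 18Q vs. WT control difference -0.15 (SE 0.14) and the 79Q vs. 18Q difference -0.15 (SE 0.12). Mchr1, its receptor in rodents, differed by -0.09 (adjusted p = 0.52) in 79Q vs. WT control.

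**Figure D1:**
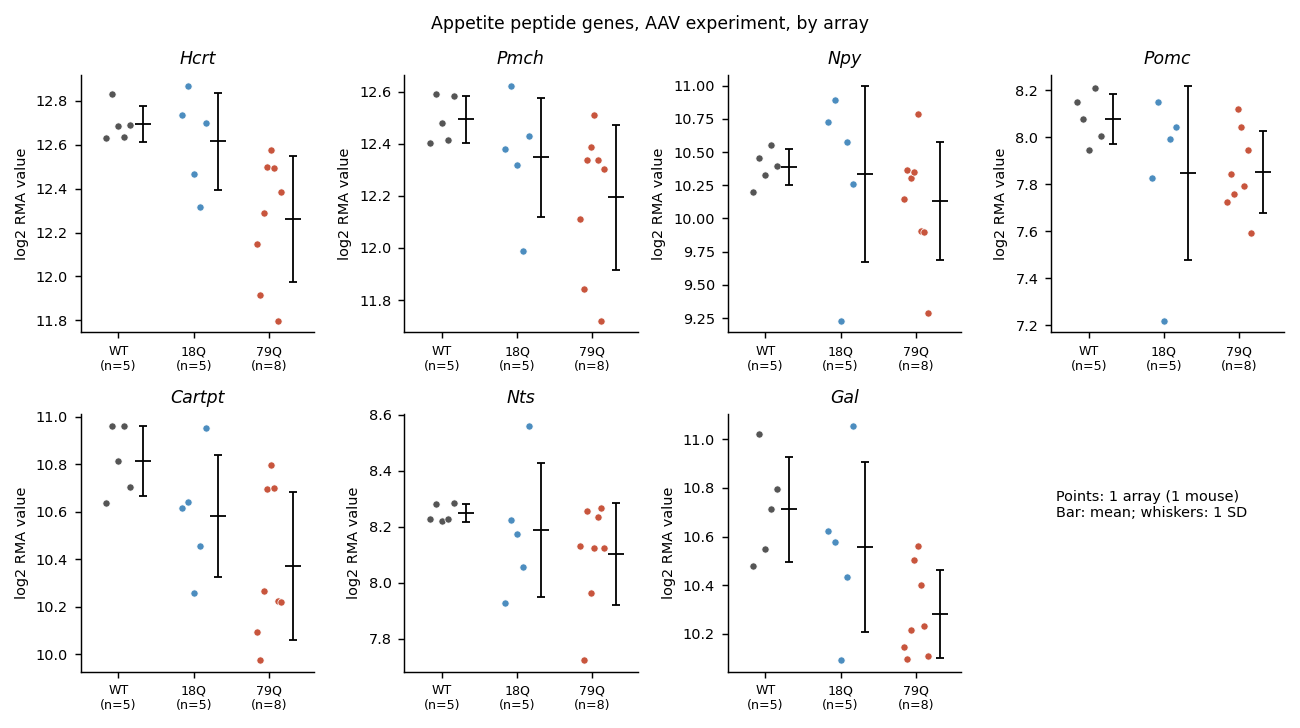
Log2 RMA value (y-axes) of each of the 7 peptide genes in every array of the WT control, 18Q and 79Q groups (x-axes), with the mean and 1 SD. The 8 79Q points of Hcrt lie below the 5 WT control points, and 18Q replicate 3 is the low point of Npy (9.23) and Pomc (7.22).

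Npy and Pomc, of the opposed arcuate populations, had wide spreads in the injected groups. Npy was 10.20, 10.46, 10.33, 10.56 and 10.40 in WT control, 10.73, 10.89, 9.23, 10.57 and 10.26 in 18Q, and 9.29 to 10.79 with a median of 10.23 in 79Q. The 79Q vs. WT control difference was -0.26 (SE 0.24, adjusted p = 0.718) and the 18Q vs. WT control difference -0.05 (SE 0.27), which became 0.22 without 18Q replicate 3. Pomc was 8.15, 8.08, 7.94, 8.21 and 8.01 in WT control, 7.83, 8.15, 7.22, 7.99 and 8.04 in 18Q, and 7.59 to 8.12 with a median of 7.82 in 79Q. Its difference was -0.22 (SE 0.12, adjusted p = 0.447, exact p = 0.0303) in 79Q mice. In 18Q mice it was -0.23 (SE 0.14, adjusted p = 0.538), or -0.07 without replicate 3. The mice overlapped with WT control in every one of these comparisons, and 79Q vs. 18Q gave -0.20 (interval -0.72 to 0.31) for Npy and 0.01 (interval -0.25 to 0.27) for Pomc.

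4 AAV arrays (18Q replicate 3 and 79Q replicates 6, 7 and 8) lay above every WT control array in thalamus markers. Without them the 79Q vs. WT control difference of Npy was 0.00 (SE 0.13). Replicates 6, 7 and 8 were also the lowest 79Q mice for Npy (9.90, 9.90 and 9.29), so leaving them out could only raise its 79Q mean. The differences of Hcrt (-0.41, SE 0.12), Cartpt (-0.45, SE 0.15) and Gal (-0.41, SE 0.13) stood beside -0.43, -0.44 and -0.43 over all arrays. This split was chosen after seeing the data, and the part of the dissection in these differences was not tested. The difference of Pomc was -0.18 (SE 0.09) and that of Pmch -0.26 (SE 0.13), and no gene of the 7 passed an adjusted p of 0.05.

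Cartpt, which encodes an appetite-curbing peptide of the arcuate and many other nuclei, was 10.64, 10.96, 10.81, 10.96 and 10.70 in WT control, 10.62, 10.64, 10.26, 10.46 and 10.95 in 18Q, and 9.98 to 10.80 with a median of 10.25 in 79Q. Among the 79Q mice, 3 lay at 10.70 to 10.80, inside the WT control range, and 5 at 9.98 to 10.27, below it. The 79Q vs. WT control difference was -0.44 (SE 0.14), or 73.6% of the WT control level, with all 8 mice below the WT control mean (adjusted p = 0.128, exact p = 0.021). In 18Q the difference was -0.23 (SE 0.16, adjusted p = 0.606).

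Gal was 10.48, 11.02, 10.55, 10.71 and 10.79 in WT control, 10.62, 10.58, 10.09, 10.43 and 11.06 in 18Q, and 10.10 to 10.56 with a median of 10.22 in 79Q. All 8 79Q mice lay below the WT control mean, and 6 of them below the lowest WT control mouse. The 79Q vs. WT control difference was -0.43 (SE 0.13), or 74.3% of the WT control level (adjusted p = 0.112, exact p = 0.00466), and it passed when these 2 groups were fitted alone (adjusted p = 0.0429). The difference was -0.16 (SE 0.14) in 18Q vs. WT control and -0.27 (SE 0.13, interval -0.55 to 0.00) in 79Q vs. 18Q. Of the galanin receptors, Galr1 differed by -0.31 (SE 0.11, adjusted p = 0.204) and Galr2 by -0.16 (SE 0.06, adjusted p = 0.173) in 79Q vs. WT control.

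Nts had the smallest difference of the 7 genes in 79Q vs. WT control. Its WT control mice were within 8.22 to 8.29, the 18Q mice were at 7.93, 8.22, 8.17, 8.06 and 8.56, and the 79Q mice ran from 7.72 through a median of 8.13 to 8.27. The spread was 0.03 (SD, n = 5) in WT control against 0.24 (n = 5) in 18Q and 0.18 (n = 8) in 79Q. The 18Q mice differed from WT control by -0.06 (SE 0.11) and the 79Q mice by -0.15 (SE 0.09, adjusted p = 0.55). The receptor gene Ntsr2 differed by -0.22 (SE 0.06, adjusted p = 0.0985) in 79Q vs. WT control.

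In 18Q vs. WT control, which shares its controls with the comparison above, the 7 genes also all had lower means, as had 55.0% of all probe sets. The median difference was -0.15 against -0.01 over all probe sets. 0 of the 7 passed an adjusted p of 0.05 in limma (2.11% of all probe sets), 0 an unadjusted p of 0.05 (12.6%) and 0 an exact permutation p of 0.05 (12.0%), and 0 had groups that did not overlap (4.07%). The 95% intervals reached 0.22 to 0.57 log2 units to either side. 79Q vs. 18Q, the comparison in which both groups were injected, asks what the longer repeat adds. There 6 of the 7 genes had a lower mean in 79Q (median -0.20, all probe sets -0.01), as had 54.6% of all probe sets. 0 passed an adjusted p of 0.05 in limma (0.0% of all probe sets), 1 passed an unadjusted p of 0.05 (Hcrt, 4.24% of all probe sets) and the same gene had an exact p under 0.05 (3.88%), and 0 had groups that did not overlap (0.0834%).

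**Figure D2:**
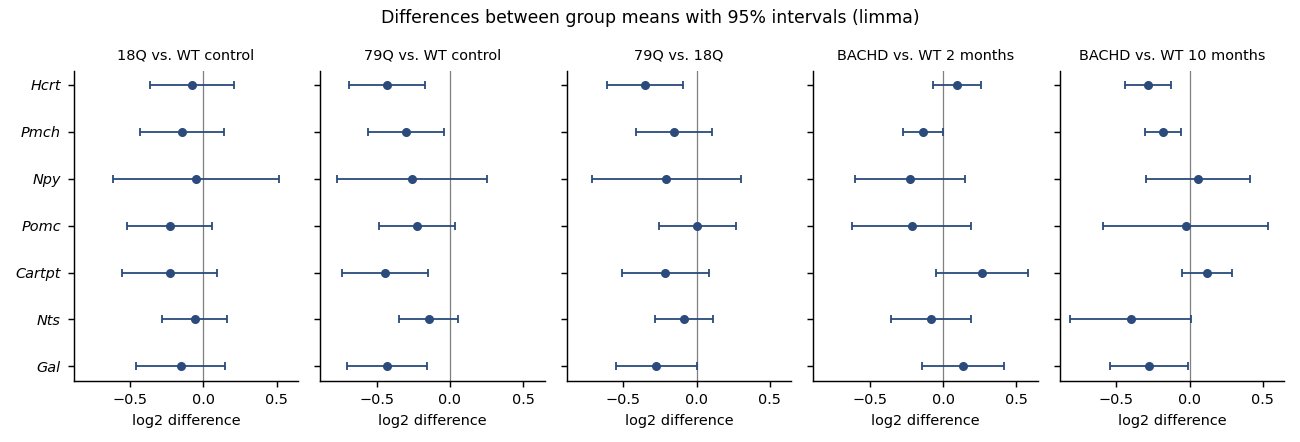
Log2 difference between group means (x-axes) of the 7 peptide genes (y-axes) in each of the 5 comparisons, with 95% intervals from limma. In 79Q vs. WT control the intervals of Hcrt, Pmch, Cartpt and Gal lie below 0, and in BACHD vs. WT at 10 months those of Hcrt, Pmch and Gal do.

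The second question was whether BACHD mice, without injection, differed at an early and a later age. At 2 months the median difference of the 7 genes was -0.08 against -0.03 over all probe sets. Of the 7, 4 were lower and 3 higher, where 65.7% of all probe sets were lower. 0 passed an adjusted p of 0.05 (0.0% of all probe sets in limma) and 0 an unadjusted p of 0.05 (4.09%), 1 had an exact permutation p under 0.05 (Pmch, against 4.15% of all probe sets), and 0 had groups that did not overlap (0.121%). At 10 months the median was -0.18 against 0.01 over all probe sets, with 5 lower and 2 higher, where 46.1% of all probe sets were lower. 0 passed an adjusted p of 0.05 (0.0% of all probe sets in limma), 3 passed an unadjusted p of 0.05 (Hcrt, Pmch and Gal, all lower, against 4.55% of all probe sets) and 2 had groups that did not overlap (Hcrt and Pmch, against 3.48%), the same 2 that had an exact permutation p under 0.05 (3.64% of all probe sets).

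At 2 months Hcrt ran from 12.57 through a median of 12.73 to 12.79 in WT and from 12.56 through 12.81 to 12.97 in BACHD, with a difference of 0.10 (SE 0.08, adjusted p = 0.939). At 10 months it was 12.99, 12.72 and 12.82 in WT and 12.57, 12.50, 12.63, 12.63 and 12.49 in BACHD. Each of the 5 BACHD mice lay below each of the 3 WT mice at that age, and the difference was -0.28 (SE 0.07), or 82.3% of WT (adjusted p = 0.997). The exact p was 0.0179, the smallest that 5 against 3 mice allow, and the difference ran from -0.34 to -0.21 without each mouse in turn. The age by genotype term of Hcrt was -0.38 (SE 0.11, unadjusted p = 0.00275), but it did not pass over all probe sets (adjusted p = 0.9996). For that term 0 of the 7 genes passed an adjusted p of 0.05 (0.0% of all probe sets) and 2 passed an unadjusted one (Hcrt and Gal, against 2.62%).

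Pmch at 2 months ran from 12.36 through 12.47 to 12.49 in WT and from 12.20 through 12.28 to 12.53 in BACHD. 5 of the 6 BACHD mice lay below the WT mean and replicate 3 was above all WT mice, with a difference of -0.13 (SE 0.06, adjusted p = 0.939, exact p = 0.0411). At 10 months it was 12.55, 12.48 and 12.58 in WT and 12.34, 12.41, 12.26, 12.45 and 12.34 in BACHD. Again no BACHD mouse reached the lowest WT mouse (difference -0.18, SE 0.05, 88.2% of WT, adjusted p = 0.997, exact p = 0.0179). The age by genotype term of Pmch was -0.05 (interval -0.23 to 0.14).

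**Figure D3:**
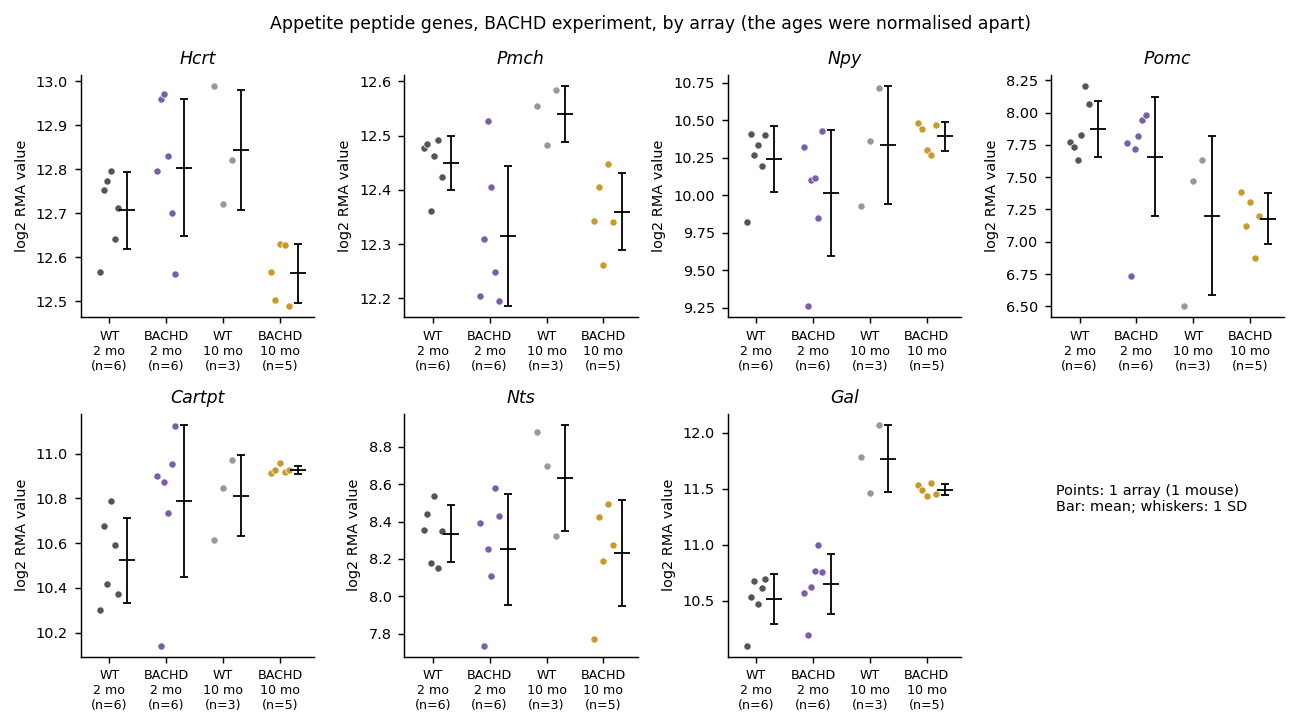
Log2 RMA value (y-axes) of the 7 peptide genes in every array of the WT and BACHD groups at 2 and 10 months (x-axes), with the mean and 1 SD, where the 2 ages were taken as normalised apart. At 10 months the 5 BACHD points of Hcrt (12.49 to 12.63) and of Pmch (12.26 to 12.45) lie below the 3 WT points, and Cartpt in BACHD lies within 10.91 to 10.96.

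Gal at 10 months was 11.78, 11.46 and 12.06 in WT and 11.53, 11.49, 11.43, 11.55 and 11.45 in BACHD, a difference of -0.28 (SE 0.12, exact p = 0.0714). All 5 BACHD mice were below the WT mean, but the WT replicate at 11.46 lay among them. The difference was -0.43 without that mouse (WT replicate 2) and -0.13 without WT replicate 3. At 2 months Gal ran from 10.10 through 10.58 to 10.70 in WT and from 10.20 through 10.69 to 11.00 in BACHD (difference 0.14, SE 0.13), and the age by genotype term was -0.41 (SE 0.20, unadjusted p = 0.0488, adjusted p = 0.9996). Nts at 10 months was 8.88, 8.70 and 8.32 in WT and 7.77, 8.43, 8.19, 8.49 and 8.28 in BACHD (difference -0.40, SE 0.18, exact p = 0.125), with overlap. At 2 months it differed by -0.08 (SE 0.13), and by 0.02 without BACHD replicate 2.

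Cartpt at 2 months ran from 10.30 through 10.51 to 10.79 in WT and from 10.14 through 10.89 to 11.13 in BACHD. 5 of the 6 BACHD mice lay above the WT mean and replicate 2 below all WT mice, and the difference was 0.26 (SE 0.15, exact p = 0.13). Among the 5 arrays with a thalamus marker mean under 8.5 (3 BACHD and 2 WT) it was 0.51 (SE 0.11, adjusted p = 0.525), and among the 7 at or above 8.5 it was 0.04 (SE 0.19), a split chosen after seeing the data. By the same split the difference of Pmch was -0.24 (SE 0.08) and -0.03 (SE 0.09), and that of Nts turned from 0.22 (SE 0.10) to -0.34 (SE 0.14). At 10 months the WT values were 10.62, 10.85 and 10.97, the BACHD values lay within 10.91 to 10.96, and the difference was 0.12 (SE 0.07, exact p = 0.107). It was 0.019 without WT replicate 1 and 0.20 without WT replicate 3.

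Npy at 2 months ran from 9.82 through 10.30 to 10.41 in WT and from 9.26 through 10.11 to 10.43 in BACHD (difference -0.23, SE 0.17), and Pomc from 7.63 through 7.80 to 8.21 and from 6.74 through 7.79 to 7.98 (difference -0.21, SE 0.19). WT replicate 5, with the highest Pomc of its group (8.21), was also the highest array at 2 months in the pituitary genes Prl (13.58) and Gh (13.66). At 10 months WT replicate 3 was the highest of its group in Pomc (7.63), Prl (10.32) and Gh (8.93). In the AAV experiment 18Q replicate 3 had the highest Prl (11.76) and Gh (10.44) of its group with the lowest Pomc (7.22). 79Q replicate 8 likewise had the highest Prl (10.52) and Gh (9.58) with the lowest Pomc (7.59). In the comparison with marker lists below, Pomc had an r of 0.38 with the pituitary markers over the 38 arrays (permutation adjusted p = 0.144). By set, r was 0.03 in the AAV arrays, 0.46 at 2 months and 0.56 at 10 months. The part of pituitary RNA, another source of Pomc, in the differences of Pomc was not tested. At 2 months BACHD replicate 2 gave the lowest value of both Npy and Pomc, and without it the differences were -0.08 and -0.03. At 10 months Npy was 9.93, 10.36 and 10.72 in WT and 10.48, 10.44, 10.30, 10.27 and 10.46 in BACHD (difference 0.06, interval -0.30 to 0.41). Pomc was 6.50, 7.47 and 7.63 in WT and 7.39, 7.12, 7.31, 6.87 and 7.20 in BACHD (difference -0.03, interval -0.59 to 0.54). The mice of both genotypes overlapped, and WT replicate 1 was the lowest for both genes.

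The peptide genes were next compared with each other across arrays, after the group mean was taken from each value, to see which genes varied together between mice of a group. Of 21 pairs, 7 passed an adjusted p of 0.05 over the pairs (100000 permutations within groups, n = 38 arrays), all with a positive Pearson r. Hcrt and Pmch had the highest r, 0.87 (adjusted p = 0.00021, Spearman rho 0.72 with adjusted p = 0.00147), and r was 0.79 without 79Q replicates 2 and 7, the arrays farthest from the Hcrt median. The pair held within the 18 AAV arrays (r = 0.96) and not within the 12 arrays at 2 months (r = 0.51, adjusted p = 0.334) or the 8 at 10 months (r = 0.16, adjusted p = 0.933). Within the 8 79Q mice alone r was 0.98.

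The other 6 pairs joined Npy, Pomc, Cartpt and Gal. Npy and Pomc, markers of neurons with opposite actions on feeding, had an r of 0.70 (adjusted p = 0.00154, rho 0.51 with adjusted p = 0.015) and 0.64 without 18Q replicate 3 and 79Q replicate 8, with 0.79 in the AAV arrays, 0.71 at 2 months and 0.89 at 10 months, of which the AAV value passed (adjusted p = 0.0283, 0.223 and 0.3). Cartpt and Gal had an r of 0.71 (adjusted p = 0.00063, rho 0.64 with adjusted p = 0.00336), with 0.84 in the AAV arrays (adjusted p = 0.000315), 0.62 at 2 months (adjusted p = 0.223) and 0.28 at 10 months (adjusted p = 0.996). Pomc and Cartpt had 0.63, Npy and Cartpt 0.55, Pomc and Gal 0.53 and Npy and Gal 0.53. By Spearman correlation 5 of the 7 pairs passed, without Npy and Cartpt (adjusted p = 0.0594) and Npy and Gal (adjusted p = 0.142). Npy and Gal gave 0.40 (adjusted p = 0.138) without 18Q replicate 3 and 79Q replicate 8, the 2 arrays farthest from the Npy median. Hcrt had an r of 0.10 with Npy, -0.14 with Pomc and 0.01 with Nts over all arrays. By set, r was 0.26 in the AAV arrays, -0.25 at 2 months and -0.68 at 10 months for Hcrt and Npy, and 0.23, -0.59 and -0.69 for Hcrt and Pomc, of which none passed. Hcrt and Cartpt, with an r of 0.36 over all arrays (adjusted p = 0.169), passed within the AAV arrays (r = 0.73, adjusted p = 0.0283), with -0.39 at 2 months and -0.58 at 10 months. The genes of an array share its normalisation and the cut of its dissection, and thalamus markers varied between the dissections of a set.

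**Figure D4:**
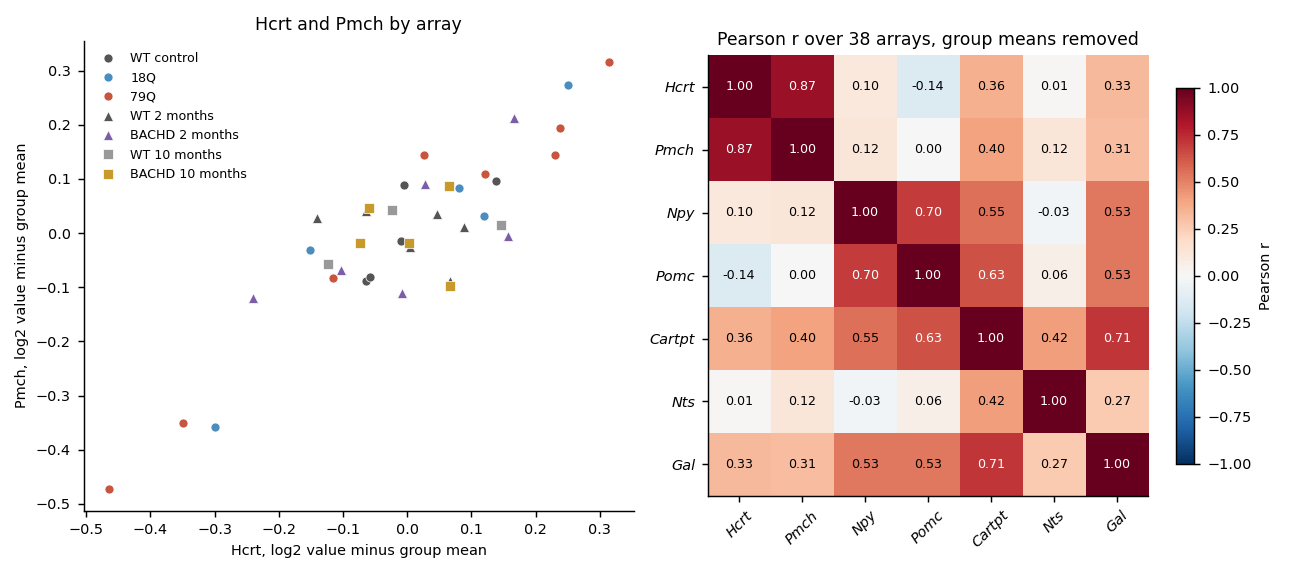
Left, log2 value minus group mean of Hcrt (x-axis) and Pmch (y-axis) in each of the 38 arrays, coloured by group. Right, Pearson r of each pair of peptide genes over the 38 arrays with group means removed, with 0.87 for Hcrt and Pmch and 0.70 for Npy and Pomc as examples.

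Each of the 7 genes was also set against 10 marker lists of neighbouring regions and cell types in the same way, a comparison chosen after seeing the data. Of the 70 relations, 5 passed an adjusted p of 0.05 over them by Pearson r, and the adjusted p of these 5 are for Pearson r. Npy and Pomc went with the hypothalamus markers (r = 0.60, rho 0.53, adjusted p = 0.0273, and r = 0.64, rho 0.65, adjusted p = 0.007), with 0.77 and 0.74 in the AAV arrays, 0.31 and 0.60 at 2 months, and 0.58 and 0.61 at 10 months. Without the 2 arrays farthest from the median of the list r was 0.50 and 0.56. Npy and Cartpt went with the 5 striatum markers (r = 0.58, rho 0.50, adjusted p = 0.007, and r = 0.63, rho 0.54, adjusted p = 0.0126), with r of 0.50 to 0.78 within the sets. Pomc went against the pan-neuronal markers (r = -0.52, rho -0.50, adjusted p = 0.0126), with -0.47 in the AAV arrays, -0.69 at 2 months and -0.46 at 10 months. By Spearman rho the same 5 passed, and further relations did so that had a Pearson adjusted p of 0.079. These were Pomc (rho -0.57, adjusted p = 0.0252) and Cartpt (rho -0.48, adjusted p = 0.0339) against cortex and hippocampus markers. Gal against B and T cell markers was the other (rho -0.59, adjusted p = 0.0217).

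With the thalamus markers, r was -0.50 for Pomc (adjusted p = 0.0541) and -0.38 for Npy (adjusted p = 0.079), which did not pass. By set, r was -0.59 and -0.75 in the AAV arrays, -0.79 and -0.51 at 2 months, and 0.27 and 0.24 at 10 months. Without the 2 arrays farthest from the median of the list it was -0.34 and -0.26. For Cartpt, Nts and Gal r was -0.32, -0.37 and -0.36 (adjusted p = 0.196, 0.155 and 0.144). It was 0.20 for Hcrt (adjusted p = 0.281) and 0.06 for Pmch (adjusted p = 0.765). By set, Hcrt gave -0.10 in the AAV arrays, 0.57 at 2 months and 0.24 at 10 months. With the microglia markers, r was -0.49 for Hcrt (adjusted p = 0.122) and -0.57 for Pmch (adjusted p = 0.079), which did not pass. 79Q replicate 7 was the lowest 79Q mouse for Hcrt and Pmch and the highest for microglia markers (9.09). Replicate 2, the next lowest for both genes, had a microglia marker mean of 8.59, within a 79Q range of 8.46 to 9.09. Replicate 8, the next highest for microglia markers (8.82), was near the 79Q medians for Hcrt (12.385) and Pmch (12.304).

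**Figure D5:**
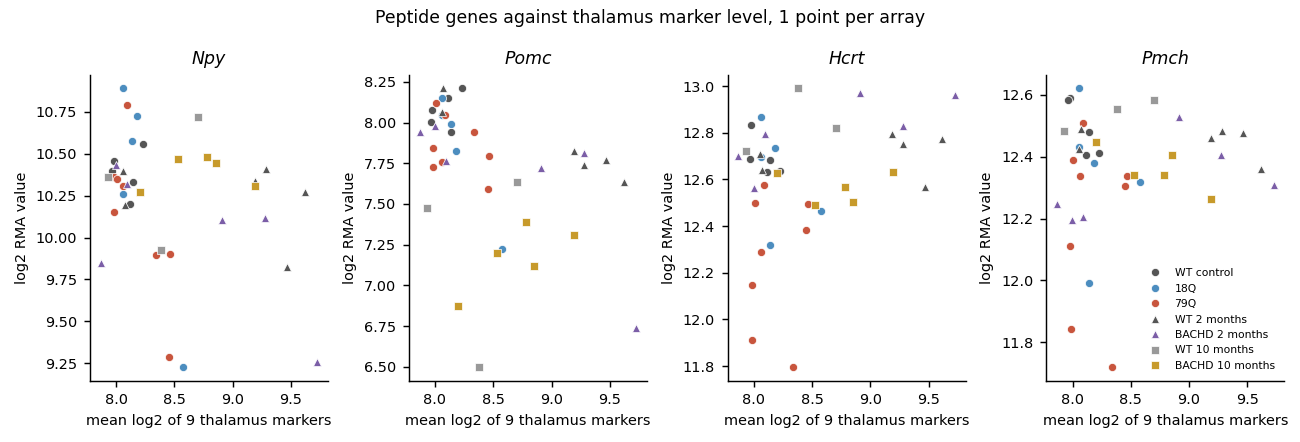
Log2 RMA value (y-axes) of Npy, Pomc, Hcrt and Pmch against the mean log2 value of 9 thalamus markers (x-axes), 1 point per array, coloured by group, where the AAV, 2 months and 10 months arrays were taken as normalised apart. 18Q replicate 3 (8.58) and BACHD 2 months replicate 2 (9.73) combine a high thalamus marker level with the lowest Npy and Pomc of their groups, and among the AAV arrays the lowest Hcrt and Pmch points are 79Q arrays. WT 10 months replicate 3 (8.70) combines the highest thalamus marker level of its group with the highest Npy (10.72) and Pomc (7.63).

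The genes most like each peptide gene were looked for among 19936 others by the same within-group r over 38 arrays, given as a description. The nearest to Hcrt were Pmch (0.87), Npvf (0.59), which encodes RFamide-related peptides, and Ttyh1 (0.55), and the nearest to Pmch were Hcrt, Ttyh1 (0.63) and Adamtsl2 (0.58). By set, the r of Npvf with Hcrt was 0.64 in the AAV arrays, 0.52 at 2 months and 0.89 at 10 months. These values were not tested, and the genes named here were picked by r over the same arrays. Pomc had the closest neighbours, Crabp1 (0.89), Tbx3 (0.89), a transcription factor of arcuate neurons, and Nr0b1 (0.83), a nuclear receptor, with r of 0.78 or more in each set. Npy was nearest to Cited1 (0.78), Gpr50 (0.78), a melatonin-related receptor gene of the hypothalamus, and Ets2 (0.78). Gal was nearest to Nucb2 (0.81), the nesfatin precursor gene, Brs3 (0.80), a bombesin-like receptor gene, and Rsph1 (0.79). Cartpt was nearest to Tox2 (0.78), Samd14 (0.76) and 1700037H04Rik (0.74), and Nts to Slc39a12 (0.79), Sdhb (0.75) and Gstm5 (0.75).

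Receptors, processing enzymes and other peptide genes give the surroundings of the 7 genes in 79Q vs. WT control, where 57.8% of all probe sets had a lower mean. All 15 receptor genes of the 8 peptides had a lower mean (median -0.16), none passed an adjusted p of 0.05 in limma, and 6 passed an unadjusted one against 14.0% of all probe sets, Mc4r, the melanocortin receptor that limits feeding (-0.23, SE 0.09), and Npy2r (-0.33, SE 0.13) among them. In 18Q vs. WT control 14 of the 15 were lower (median -0.05) and 3 passed an unadjusted p of 0.05, against 12.6% of all probe sets. Of 15 genes for precursor processing and dense-core granules, none passed and 13 had a lower mean (median -0.07), with Vgf, a granule protein gene (-0.25, SE 0.07, adjusted p = 0.101), Chgb, a granin gene (-0.16, SE 0.05, adjusted p = 0.127), and Pcsk1, the convertase that opens these precursors (-0.18, SE 0.06, adjusted p = 0.128), the first by p.

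Of 12 genes listed as partners of the peptide neurons, 2 passed an adjusted p of 0.05 in 79Q vs. WT control, both lower (median -0.23). Over all probe sets 2.07% passed, and bulk tissue cannot place these genes in the same cells as the peptides. Tacr3, the neurokinin B receptor, fell by 0.45 (SE 0.06, adjusted p = 0.000403), and Gad1, which makes GABA, fell by 0.21 (SE 0.05, adjusted p = 0.0275). Tacr3 differed by -0.60 (SE 0.11, unadjusted p = 0.000586, adjusted p = 0.997) in BACHD at 10 months and by -0.40 (adjusted p = 0.939) at 2 months. Of 24 other hypothalamic peptide genes, 2 passed in 79Q vs. WT control, both lower, against 2.07% of all probe sets (median -0.25), with 23 lower means. Nms, the neuromedin S gene, fell by 0.72 (SE 0.16, adjusted p = 0.0229) and Penk, the enkephalin precursor gene, by 0.29 (SE 0.07, adjusted p = 0.0297). The median of the 7 appetite peptide genes, -0.30, lay near that of these other peptide genes.

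Of 14 genes for sensing hormones and nutrients, none passed in 79Q vs. WT control, and 9 had a lower mean (median -0.04), near the 57.8% of all probe sets. Lepr, the leptin receptor, differed by -0.03 (SE 0.07) and Insr, the insulin receptor, by 0.00 (SE 0.04), while Glp1r, the receptor of glucagon-like peptide 1, differed by -0.40 (SE 0.13, adjusted p = 0.125) and Stat3, which carries the leptin signal, by 0.16 (SE 0.06, adjusted p = 0.203). Of 9 identity factors of arcuate and lateral neurons, none passed, and all 9 had a lower mean (median -0.17). Otp (-0.26, SE 0.10, adjusted p = 0.255), Bsx (-0.17, SE 0.08, adjusted p = 0.307), which activates Npy, and Dlx1 (-0.33, SE 0.11, adjusted p = 0.167) were the first by p.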

How the data were processed

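The authors deposited log2 values that they had made from Affymetrix Mouse Gene ST arrays with ReadAffy and RMA (R 4.1.1, affy 1.70.0), and tested them with limma 3.48.3, per the labels and the study's methods. The 34760 probe sets of 38 arrays were used as deposited. RMA values carry no detection calls, and precision is set by how many mice a group holds. Symbols came from the platform table (21640 probe sets with 1 symbol, 1321 with several, 11799 with none). Groups came from the labels. The genes and lists were chosen with earlier results of these data known.

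limma 3.58.1 in R 4.3.3 (lmFit, contrasts.fit, eBayes) was run on all probe sets, with Benjamini-Hochberg adjustment over them, separately for the AAV arrays (3 contrasts), each BACHD age, and both ages for age by genotype. Every adjusted p of a gene comes from these fits. Exact two-sided permutation tests split the arrays in every way and were not adjusted. The p-values weigh a difference of means against the spread between these mice, which limma pools over the groups of a fit and moderates over all probe sets. The smallest exact p is 0.00794 (5 against 5), 0.000777 (8 against 5), 0.00216 (6 against 6) and 0.0179 (5 against 3). Correlations used Python 3.11.15 (numpy 2.4.6). On simulated data the 79Q vs. WT control fit found 167 of 200 probe sets changed by 0.5 log2 units, out of 34760. At the same size it found 155 in 18Q vs. WT control, 168 in 79Q vs. 18Q, 126 in BACHD at 2 months, 129 at 10 months and 83 for age by genotype. The changed probe sets were drawn from all probe sets, with a median SE of 0.06 in 79Q vs. WT control. The 7 peptide genes had SEs from 0.09 (Nts) to 0.24 (Npy) there, so these counts do not give the rate for them.

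Named are the 7 genes, the 3 genes with the highest within-group r for each, their receptors, and from each list up to 4 genes, lowest p first in 79Q vs. WT control, plus any with an adjusted p under 0.05. Lepr, Insr, Prl, Gh and the named hypothalamus markers were added after their values were seen. Alternatives were another centring, quantile normalisation, omission of dim probe sets, trended and robust eBayes, a replicate block, omission of each mouse, fits of 2 groups or all arrays, and Spearman correlation.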

Additional observations from a re-analysis of the deposited data

Results flagged for a closer look

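2 of 42 sets of values (7 genes in the 6 groups of 5 or more mice) held a mouse far from the others of its group, where chance gives about 1 in 20. Npy in WT 2 months replicate 1 was 9.82, with the next mouse at 10.20. Pomc in BACHD 2 months replicate 2 was 6.74, with the next at 7.72, and this array was also the highest of the 12 arrays at 2 months in thalamus markers (9.73).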

How the results depend on the processing

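No appetite peptide gene passed an adjusted p of 0.05 as reported. In 79Q vs. WT control 1 gene passed without dim probe sets and 1 in the fit over all 38 arrays (Hcrt in both), and 1 with these 2 groups fitted alone (Gal). The exact permutation tests, which are not adjusted, gave 5 genes in 79Q vs. WT control (15.3% of all probe sets), 1 in 79Q vs. 18Q (3.88%), 1 in BACHD at 2 months (4.15%) and 2 at 10 months (3.64%). The cause was not tested. Without each mouse in turn, 0 genes passed in any comparison. Another centring, quantile normalisation and trended, robust eBayes called 0 of the 7 genes in any comparison.

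Mice with the same replicate number did not deviate together (r over probe sets from -0.31 to 0.28), so that the numbers were not taken as pairs. With the number as a replicate block, 0 genes passed in every comparison, and Npy reversed to 0.18 in 18Q vs. WT control and 0.023 in 79Q vs. WT control, and Pomc to 0.069 in BACHD at 10 months. Without the 4 AAV arrays high in thalamus markers, Npy turned to 0.22 in 18Q vs. WT control and 0.0018 in 79Q vs. WT control, and Pomc to -0.11 in 79Q vs. 18Q, and in the 2 months arrays low in these markers Nts turned to 0.22.

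Without each mouse in turn, these differences also changed sign. Npy ran from -0.19 to 0.22 in 18Q vs. WT control and from -0.15 to 0.25 in BACHD at 10 months. Nts ran from -0.15 to 0.0057 in 18Q vs. WT control, from -0.15 to 0.0079 in 79Q vs. 18Q and from -0.15 to 0.019 in BACHD at 2 months. Pomc ran from -0.15 to 0.082 in 79Q vs. 18Q, from -0.38 to 0.19 in BACHD at 10 months and from -0.16 to 0.40 for age by genotype.

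Of 21 pairs, 12 passed with each array centred on its median, 4 within the AAV arrays, and 0 within the 2 months and 0 within the 10 months arrays, where 4 and 3 pairs had an unadjusted p under 0.05. A second probe set was not tried, since each gene had 1.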
